A study of Mus musculus with 8 samples.

Results

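Loss of Derlin-2 from the central nervous system was examined through 4 arrays of the dentate gyrus, 2 of Derlin-2 KO and 2 of Derlin-2 control mice. They are 4 of 8 arrays, of which the remaining 4 belong to a Derlin-1 line built in the same way. All probes that were well above background on each of the 4 Derlin-2 arrays were taken, which gave 36272 of the 56605 probes and 18662 named genes. Controls carried the allele Derlin-2flox/flox, in which loxP sites flank a segment of the gene on both chromosomes. KO mice carried the same floxed alleles together with Cre recombinase under the nestin promoter, which is active in neural progenitors and leaves microglia and blood vessels outside the deletion. No Cre is named for the controls, so an effect of Cre itself and the loss of the gene cannot be told apart. Because the KO labels list the floxed allele and no Cre under genotype, the groups rest on the sample titles. All mice were male C57BL/6 animals aged 8 to 9 weeks. The labels do not say whether the 2 arrays of a group came from separate mice or from pools, so the p-values measure the spread between these samples, which may be technical.

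Derlin-2 is a membrane protein of the endoplasmic reticulum (ER). It belongs to a small family with Derlin-1 and Derlin-3 that helps misfolded proteins out of the ER to the cytosol, where the proteasome degrades them, a route named ER-associated degradation (ERAD). When misfolded proteins build up, the sensors IRE1, PERK and ATF6 switch on the unfolded protein response, which raises chaperones and ERAD components. The dentate gyrus is the hippocampal field in which stem cells go on producing granule neurons in the adult.

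Each value below is the log2 of the quantile-normalized signal of a probe, and a difference is KO minus control on that scale. Where several probes read a gene, the brightest stands for it. Between 67.6% and 70.3% of all probes were well above background on the 4 arrays, and none of their spots was saturated. The 2 control arrays sat on positions 1 and 2 of a single slide and the 2 KO arrays on positions 3 and 4, so position and genotype cannot be told apart. Pearson's r across probes was 0.9895 between the controls, 0.9955 between the KO arrays and 0.9916 to 0.9935 between a KO and a control array. The controls were thus less alike than any other pair. Of the genes, 453 differed at least 2-fold between the 2 controls and 135 between the 2 KO arrays.

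Derl2 itself was examined first. Its brightest probe (A_51_P498831) read 11.36 and 11.22 on the control arrays and 10.63 and 10.65 on the KO arrays, a difference of -0.65 (SE 0.096). A second probe (A_55_P2178203) gave 9.12 and 8.74 in controls against 7.83 and 7.93 in KO, a difference of -1.05 (SE 0.14). Both probes were lower on both KO arrays, but neither was called in limma, where the p-values adjusted over all probes were 0.428 and 0.414. On the 4 Derlin-1 arrays the brightest probe lay between 11.39 and 11.49. The remaining Derl2 signal in KO was well above background, and bulk tissue cannot separate cells that kept the gene from transcript left after deletion. Which part of the transcript each probe reads was not examined here.

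Derl3, the family member that the unfolded protein response induces, read 6.82 and 7.66 in controls against 8.48 and 8.41 in KO. Both KO arrays exceeded both controls, and the difference was 1.21 (SE 0.28, limma adjusted p 0.732). The controls stood further apart than the KO arrays did. Derl1, the remaining member of the family, differed by 0.12 (SE 0.10) at its brightest probe and by 0.13 (SE 0.12) at the other.

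**Figure D1:**
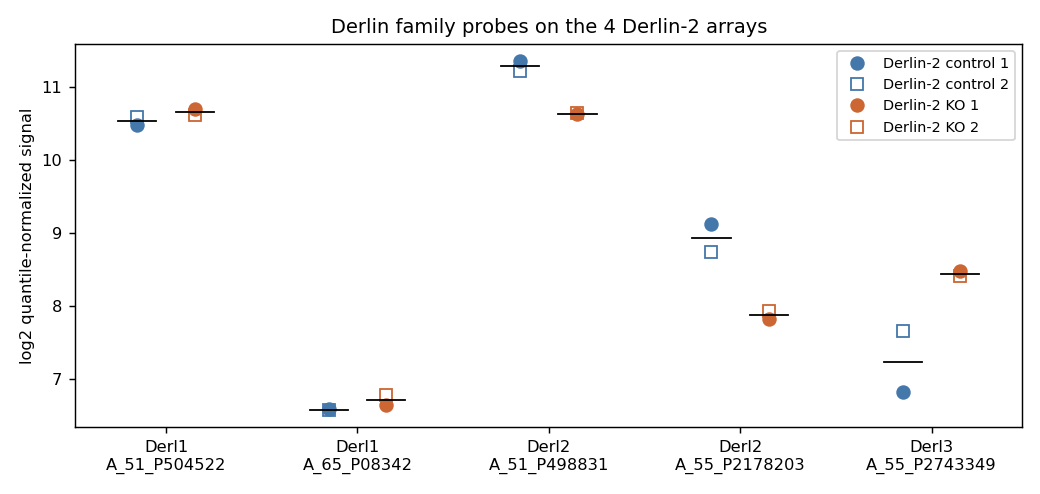
Log2 quantile-normalized signal of the 5 Derlin family probes above background on the 4 Derlin-2 arrays, with circles for the first and open squares for the second array of a group and bars for the group means. Both Derl2 probes lie lower on the KO arrays, Derl3 lies higher, and Derl1 differs by 0.12 and 0.13.

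The genes next to Derl2 on chromosome 11 gave no difference past the threshold. The 5 tested genes on each side, in the order of the RefSeq annotation of GRCm38.p6, differed by between -0.11 and 0.30. The 2 nearest, the RNA helicase Dhx33 and the kinetochore component Mis12, differed by -0.11 (SE 0.19) and 0.17 (SE 0.18). The largest of the 10, Nlrp1b, had an SE of 0.26. None of the 10 had an unadjusted p under 0.05 at its brightest probe. Of the 4 probes of Rabep1, 3 were higher in KO, the brightest by 0.11 (SE 0.10). A dimmer Rabep1 probe (A_55_P2736400) differed by -0.49 (SE 0.19, unadjusted limma p 0.0385), so its probes disagreed.

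Across the transcriptome, 1 of the 36272 probes passed an adjusted p of 0.05 in limma, and it was lower in KO. At the level of genes this is 0.00536% of 18662. Before adjustment, 1751 probes (4.83%) had a p under 0.05, near the share that this threshold gives where no probe differs. Among genes a p under 0.05 was reached by 422 that were higher in KO (2.26%) and 343 that were lower (1.84%). By size alone, 442 probes were at least 1.5-fold higher and 610 at least 1.5-fold lower, and with normexp background correction 65 and 163. Of the genes, 198 genes were at least 1.5-fold higher (1.06%) and 274 at least 1.5-fold lower (1.47%). In 116 of these 472 genes the arrays of the groups overlapped. Both KO arrays exceeded both controls in 3354 genes (18.0%) and lay below both in 2642 (14.2%). Where the groups do not differ, 33.3% of genes are expected on one side or the other, so these counts do not measure changed genes. The median difference over all genes was 0.0094.

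The differences were largest among dim probes. With all probes cut into 4 equal bins by mean signal, the dimmest bin ran from 4.14 to 6.53. There 7.57% of probes differed at least 1.5-fold, compared with 0.496% in the brightest bin. The median absolute difference between the 2 controls was 0.349 in the dimmest and 0.134 in the brightest bin, and that between KO and control was 0.199 and 0.0714. Difference and replicate spread therefore shrank together. The last eighth of the array rows held 5.93% of probes past 1.5-fold, against 1.73% to 2.97% in the other eighths. The brightest Derl2 probe lies there while the second does not. Among genes described below, the brightest probes of Alpk1, Canx, Insig1, Ube2c, Fabp7, Abcc9, Gfap and Prox1 lie there too.

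**Figure D2:**
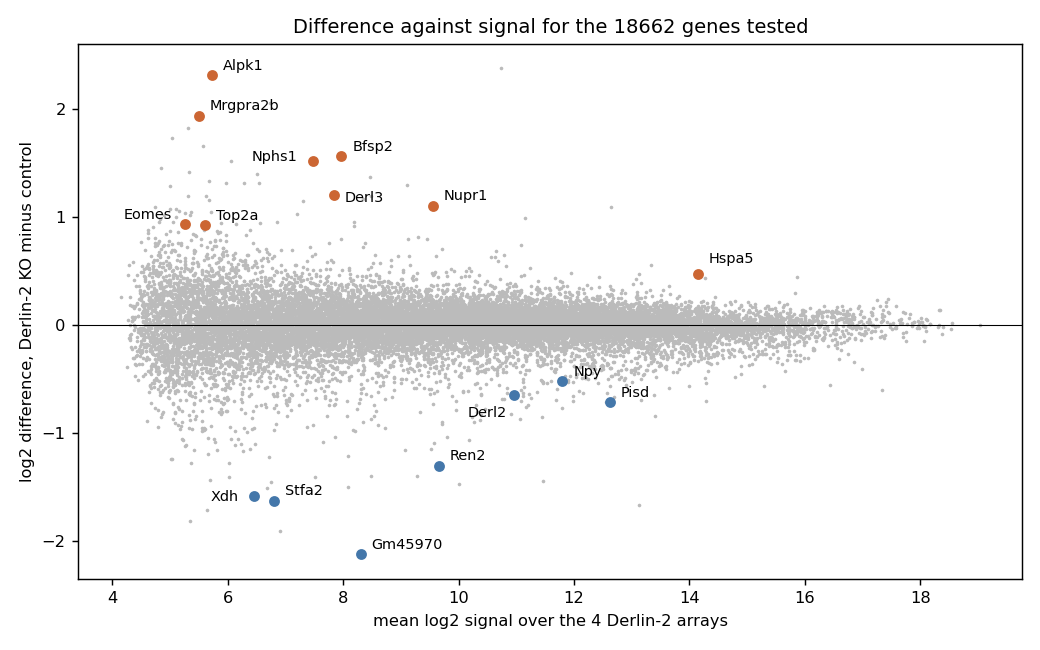
Log2 difference (KO minus control) against the mean log2 signal over the 4 arrays, with a point for each of the 18662 genes and coloured points for genes described in the text. The spread narrows toward bright genes, and Gm45970, the gene that passed the threshold, lies at -2.12.

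Gm45970, a predicted gene without an assigned function (probe A_52_P909122), was the gene that passed. It read 9.23 and 9.49 on the control arrays and 7.21 and 7.28 on the KO arrays. It fell by 2.12 (SE 0.12, limma adjusted p 0.0427). The KO arrays were close to the Derlin-1 line, whose 4 arrays read 7.44 to 7.58. No probe was called when either KO array was left out, in a fit on the 4 arrays alone, with the replicate number as a block, with row-centred values or with the deposited log2 values. Without control 2, 3 other probes were called and Gm45970 was not, and without control 1 it was 1 of 22. The nearest probe behind it was a dim one of Birc6, a large inhibitor of apoptosis (A_55_P2722233), which was chosen after its values were seen. It read 7.06 and 6.99 in controls against 5.45 and 5.55 in KO, a difference of -1.52 (SE 0.10, adjusted p 0.0552). The brightest Birc6 probe differed by 0.06 (SE 0.11), so the probes of this gene disagreed.

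The 10 genes with the smallest p in each direction, among those whose KO arrays lay on one side of the controls, held adjusted p-values of 0.361 or more apart from Gm45970. Ren2, which encodes a renin, read 10.48 and 10.13 in controls against 9.12 and 8.89 in KO, a difference of -1.30 (SE 0.15). Bfsp2, an intermediate filament protein known from the lens, read 7.5 and 6.87 in controls against 8.80 and 8.70 in KO, a difference of 1.57 (SE 0.22). A second Bfsp2 probe differed by 1.38 (SE 0.18). Both Bfsp2 probes differed in the same direction, as did the 2 probes of the predicted gene Gm5089 that were above background on all arrays, by 1.37 (SE 0.19) and 1.36 (SE 0.30).

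Alpk1, a kinase that senses bacterial sugars, had the largest positive difference of the 20, at 2.32 (SE 0.33). It read 4.04 and 5.10 in controls against 6.78 and 7.0 in KO, so the controls lay near the lower end of the measured range, and its probe lies in the last rows of the array. Cpz, a carboxypeptidase of the extracellular matrix, read 5.11 and 5.08 in controls against 6.41 and 6.10 in KO (1.16, SE 0.13). The other genes that were higher in KO were Dach2, a transcriptional cofactor (0.95, SE 0.14), 9630013A20Rik (0.89), Gm30938 (0.84), Gsdma2, a gasdermin (0.76), A330069K06Rik (0.71) and Fam114a1 (0.70). Those lower in KO were 4930425O10Rik (-1.04), the chemokine Ccl1 (-0.93), Stk36, a kinase of the Hedgehog pathway (-0.91), 9530057J20Rik (-0.84), the complement protease C1s2 (-0.80), Pisd, Derl2 and Gm15694 (-0.63).

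**Figure D3:**
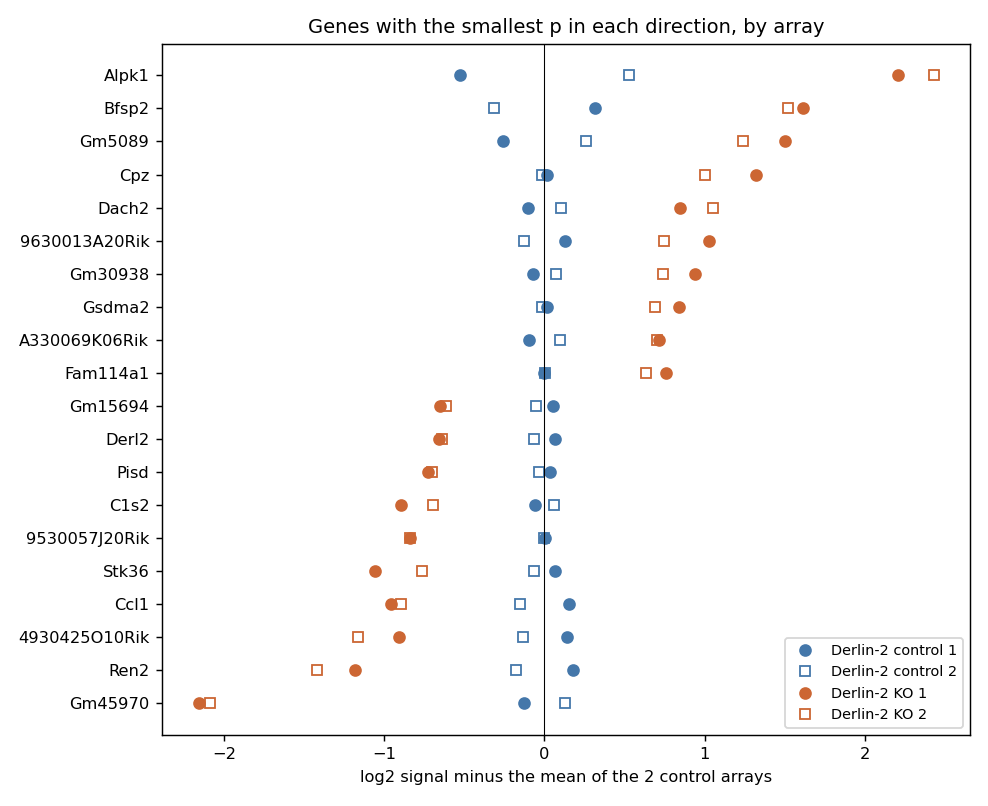
Log2 signal of the 20 genes with the smallest p in each direction, minus the mean of the 2 control arrays, with a symbol for each array. The KO symbols lie apart from the control symbols in each gene because the genes were chosen for that, and the 2 controls of Alpk1 differ the most.

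The levels of these genes on the Derlin-1 arrays were set beside them. The mean of the Derlin-2 controls lay further from the Derlin-1 arrays than the mean of the Derlin-2 KO arrays did in 11 of the 20 genes, compared with 52.2% of all 18094 genes above background on the 8 arrays. Ren2 read 6.17 to 6.46 on the Derlin-1 arrays, below both Derlin-2 groups. Bfsp2 read 8.5 to 8.92 and Gm5089 read 9.56 to 9.73 there, closer to the Derlin-2 KO arrays. Each line lies on a slide of its own, so line and slide cannot be told apart. The test of whether the KO effect differed between the lines called 0 probes in limma, with 2067 probes (5.70%) at an unadjusted p under 0.05 and a smallest adjusted p of 0.220.

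Pisd, which makes phosphatidylethanolamine in mitochondria, was lower in KO together with copies of its sequence in the genome. The brightest Pisd probe gave 13.02 and 12.94 in controls against 12.26 and 12.28 in KO (-0.71, SE 0.093), and the other 2 Pisd probes differed by -0.70 (SE 0.13) and -0.31 (SE 0.26). The pseudogene Pisd-ps1 differed by -0.58 (SE 0.11) and Pisd-ps3 by -0.84 (SE 0.19), both on bright probes. A dim second probe of Pisd-ps3 differed by 0.12 (SE 0.18), and Pisd-ps2 differed by 0.24 (SE 0.14). The copies are near-identical, so their probes may read each other's transcripts. Xlr3b, Xlr4a and Xlr4b, neighbours and close paralogs on the X chromosome, were lower on both KO arrays as well, by -0.89 (SE 0.37), -1.50 (SE 0.53) and -0.88 (SE 0.34). Their 2 KO arrays differed, with Xlr4a at 6.76 and 7.92 against 8.95 and 8.73 in controls. The Pisd copies and the Xlr genes were picked after their values were seen.

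The genes with the largest differences included several in which 1 array decided the value. Nphs1, the slit diaphragm protein of the kidney, read 8.02 and 5.40 in controls against 8.20 and 8.27 in KO (1.52, SE 0.74), so that control 2 alone was low. Xdh, which encodes xanthine dehydrogenase, read 6.35 and 8.14 in controls against 5.55 and 5.78 in KO (-1.58, SE 0.52). Klk1b22, a kallikrein, had control 2 at 7.84 and the other 3 arrays at 4.33 to 4.68, and Foxr1 had KO 2 at 7.06 and the other 3 arrays at 4.10 to 4.75. The arrays of a group lay closer for Stfa2, a stefin that inhibits cysteine proteases, with 7.58 and 7.65 in controls against 6.33 and 5.65 in KO (-1.62, SE 0.25), and for Mrgpra2b, a sensory receptor, with 4.20 and 4.87 against 6.38 and 6.58 (1.94, SE 0.38). Olfr1006 differed by -1.91 (SE 0.76). Duox1 differed by -1.71 and by -0.904 without control 2. With normexp background correction Olfr1006 differed by -0.887, Duox1 by -0.563, Stfa2 by -0.794 and Mrgpra2b by 0.433. The controls of Mrgpra2b lay near the lower end of the measured range. The gene 4633402D09Rik differed by 1.66, and by 0.89 without KO 2. The largest difference of all, 2.38 for the surface protein Cd99, came from control 2 at 6.96, with the other 3 arrays at 11.91 to 12.13.

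Genes of the ER were then described, beginning with chaperones and folding enzymes. Of 33 members tested, 0 passed the threshold, 8 lay higher on both KO arrays (24.2%, against 18.0% of all genes) and 4 lower (12.1%, against 14.2%). An unadjusted p under 0.05 was reached by 5 members that were higher (15.2%, against 2.26% of all genes) and 0 that were lower. The median difference of the list was 0.033. The 5 members were Pdia6, Hspa5, Manf, Hyou1 and Dnajc3.

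Hspa5 encodes BiP, the major chaperone of the ER. It read 13.79 and 14.02 in controls against 14.36 and 14.41 in KO, a difference of 0.48 (SE 0.12, limma adjusted p 0.732), and its other 2 probes differed by 0.47 and 0.49. The disulfide isomerase Pdia6 read 14.13 and 13.98 in controls against 14.42 and 14.58 in KO (0.44, SE 0.11). The secreted factor Manf (0.31, SE 0.098), the Hsp70 relative Hyou1 (0.27, SE 0.094) and the cochaperone Dnajc3 (0.32, SE 0.11) were higher on both KO arrays too. The remaining 28 members held differences from -0.40 to 0.30, so most of the list lay near 0.

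The promoters of the list members were searched for the ER stress element, a CCAAT box and a CCACG box with 9 bases between them, on both strands. Promoters were the 250 bases before and 50 bases after each gene start in RefSeq (GRCm38.p6). The element was found for 8 of the 29 chaperone genes with a promoter in the table (27.6%) and for 37 of all 27025 genes (0.137%). Among ERAD genes it was found for 2 of 27 (7.41%). Of the 37 genes, 20 were tested, and 8 of them lay higher and 2 lower on both KO arrays (18.0% and 14.2% of all genes did), with a median difference of 0.041. Of those 8 genes, 6 belong to the chaperone and ERAD lists, so this count largely repeats theirs. Stretches around the element are shown for 4 genes that were higher on both KO arrays, with the match in capitals, 5′ to 3′ on the strand of the gene; in Derl3 the match reads on the other strand.
Hspa5 (chr2:34771995-34772074, plus strand): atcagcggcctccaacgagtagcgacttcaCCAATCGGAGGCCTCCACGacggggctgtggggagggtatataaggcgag
Pdia6 (chr12:17266461-17266540, plus strand): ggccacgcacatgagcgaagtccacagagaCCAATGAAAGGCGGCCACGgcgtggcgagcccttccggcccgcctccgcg
Dnajc3 (chr14:118937797-118937876, plus strand): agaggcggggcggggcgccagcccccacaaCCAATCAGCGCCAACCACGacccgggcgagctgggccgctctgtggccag
Derl3 (chr10:75893212-75893291, plus strand): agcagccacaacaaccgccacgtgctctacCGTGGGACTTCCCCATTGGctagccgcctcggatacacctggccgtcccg
The match ends 47 bases before the start of Hspa5 and 80 bases before that of Pdia6. Among the 8 chaperone genes with the element, the lectin chaperone Canx also lay higher on both KO arrays (0.12, SE 0.089), while the groups overlapped for Calr, Creld2, Ero1b and Hsp90b1. A match is a sequence in the reference and was not tested for binding.

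The ERAD machinery lay on both sides of 0. Of 34 members tested, 10 lay higher (29.4%, against 18.0% of all genes) and 6 lower (17.6%, against 14.2%) on both KO arrays. The deleted gene Derl2 is itself counted among those lower and Derl3 among those higher. They hold the lowest and the highest difference of the list, -0.65 and 1.21. The median difference was -0.0035 and the mean 0.018, of opposite sign, and the median was 0.0394 with 75th percentile scaling. The lectin Os9, which delivers glycoproteins to the Hrd1 ligase, read 13.53 and 13.52 in controls against 13.24 and 13.15 in KO (-0.33, SE 0.092). Herpud1, a scaffold of that complex, differed by 0.19 (SE 0.14). Of 46 components of ER entry and export, 12 lay higher (26.1%, against 18.0% of all genes) and 4 lower (8.7%, against 14.2%) on both KO arrays, with a median of 0.038, while the oligosaccharyltransferase subunit Rpn1 differed by -0.30 (SE 0.099) and the signal recognition receptor subunit Srprb by -0.44 (SE 0.14). The 31 proteasome genes had a median of -0.022 (0.043 with 75th percentile scaling) and 0 with an unadjusted p under 0.05.

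The sensors and transcription factors of the unfolded protein response (16 members) had a median of -0.00090 and a mean of 0.0028. Xbp1, the factor that IRE1 activates, differed by 0.28 (SE 0.13) at its brightest probe. Further Xbp1 probes differed by 0.063 (SE 0.168) and 0.003 (SE 0.25). Of 33 targets of PERK and ATF4, 9 lay higher (27.3%, against 18.0% of all genes) and 1 lower (3.03%, against 14.2%) on both KO arrays. The median difference was 0.064, and 0.0154 without KO 1. Nupr1, a stress-induced chromatin protein, read 8.72 and 9.29 in controls against 10.26 and 9.96 in KO. Its difference was 1.11 (SE 0.20), while a dimmer second probe differed by 0.32 (SE 0.16). The cystine transporter Slc7a11 differed by 0.55 (SE 0.20). Ddit3, which encodes the pro-apoptotic factor CHOP, read 10.88 and 11.16 in controls against 11.08 and 10.74 in KO at its brightest probe, so the groups overlapped there. A second Ddit3 probe read 9.25 and 9.33 in controls against 9.45 and 9.56 in KO (0.22, SE 0.11), so the probes disagreed.

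Genes of sterol and fatty acid synthesis were higher on both KO arrays in 15 of 35 members tested (42.9%, against 18.0% of all genes) and lower in 3 (8.57%, against 14.2%). The median difference was 0.125, and it lay between 0.098 and 0.166 under the alternatives listed at the end. An unadjusted p under 0.05 was reached by 6 members that were higher (17.1%, against 2.26%) and 0 that were lower. None of them was called in limma.

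The sterol carrier Stard4 read 10.02 and 10.13 in controls against 10.42 and 10.55 in KO (0.41, SE 0.10), and its second probe differed by 0.60. Insig1, which holds the sterol sensor in the ER, differed by 0.44 (SE 0.13). The synthesis enzymes Fdps (0.33, SE 0.11) and Cyp51 (0.27, SE 0.097) were higher on both KO arrays too. A second, dimmer Cyp51 probe differed by -0.016 (SE 0.349), and its groups overlapped. At the brightest probe of each of these genes the control arrays were lower than the KO arrays. Control 1 was the lowest array of the list as a whole.

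**Figure D4:**
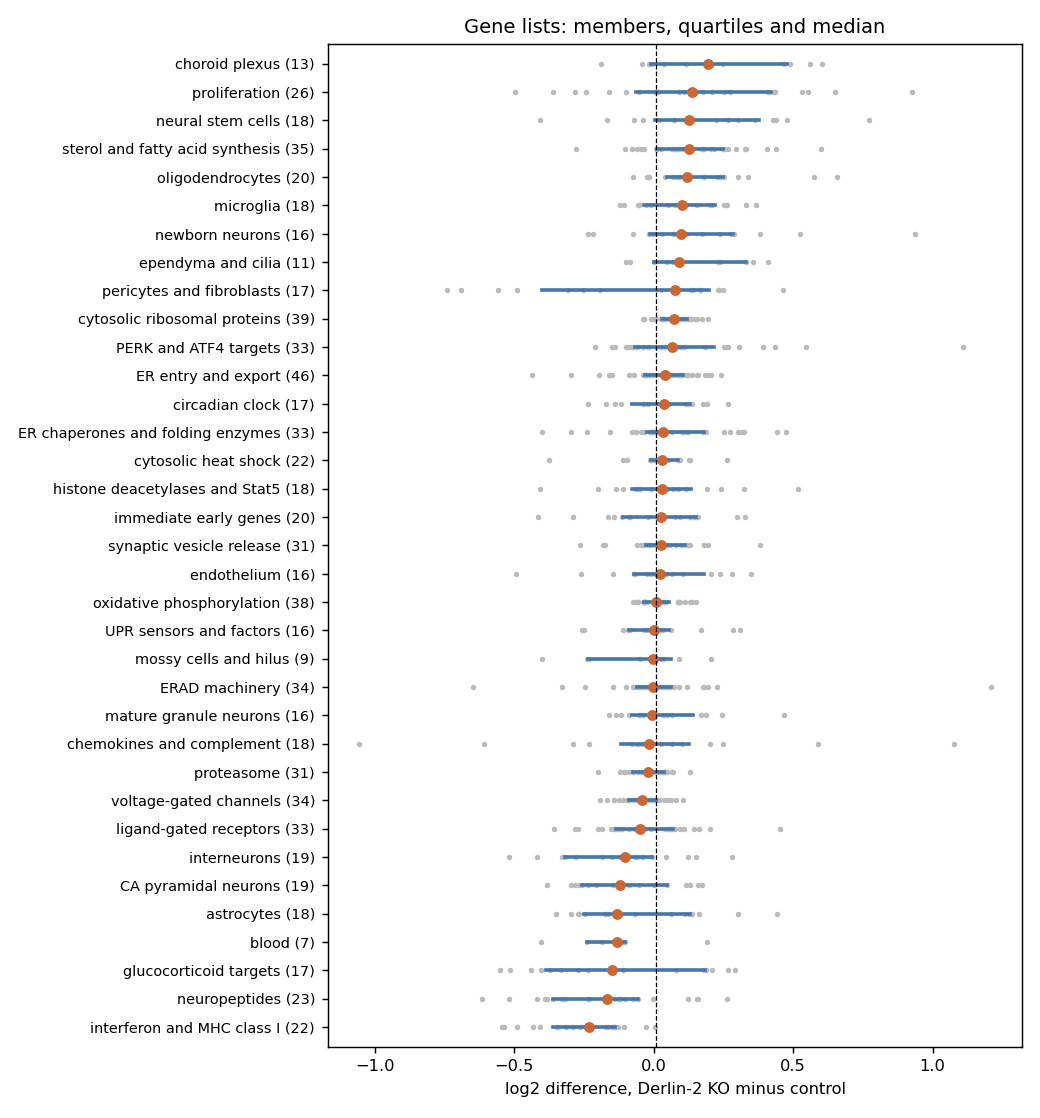
Log2 difference (KO minus control) of the tested members of 35 gene lists, with grey points for genes, blue bars for the interquartile range, orange points for medians and a dashed line at the median of all genes, 0.0094. The number of tested members stands in parentheses, and the medians run from -0.231 for interferon and MHC class I to 0.195 for the choroid plexus.

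Genes of dividing cells formed the list with the largest share of members higher on both KO arrays. Of 26 tested, 14 lay higher on both KO arrays (53.8%, against 18.0% of all genes) and 1 lower (3.85%, against 14.2%). The median difference was 0.138. Of the 26, 6 were higher with an unadjusted p under 0.05, as were 2.26% of all genes, and 0 were lower (1.84% of all genes). Top2a, the topoisomerase of dividing cells, read 5.22 and 5.06 in controls against 6.06 and 6.07 in KO, a difference of 0.93 (SE 0.16, limma adjusted p 0.561). The kinetochore protein Cenpf differed by 0.65 (SE 0.17), the ubiquitin enzyme Ube2c by 0.53 (SE 0.155), cyclin Ccna2 by 0.55 (SE 0.17), the kinesin Kif20a by 0.43 (SE 0.16) and the nucleotide reductase subunit Rrm2 by 0.42 (SE 0.115). Mki67, the gene of the Ki-67 antigen, read 7.41 and 6.67 in controls against 7.42 and 7.53 in KO (0.43, SE 0.23), with control 1 level with the KO arrays. Top2a, Cenpf, Ube2c and Kif20a lay in the dimmest bin of probes. With normexp background correction Top2a differed by 0.447, Cenpf by 0.261, Ube2c by 0.185, Kif20a by 0.142, Ccna2 by 0.301 and Rrm2 by 0.391. In addition, 4 of the 30 members of the list were not above background on all arrays. On the Derlin-1 arrays Top2a read 5.98 to 6.36 and Rrm2 7.86 to 8.04, closer to the Derlin-2 KO arrays than to the Derlin-2 controls. Cenpf read 5.96 to 6.26 there, closer to the Derlin-2 controls. Line and slide cannot be told apart in these levels.

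Markers of newborn neurons showed a like split. Of 16 tested, 7 lay higher on both KO arrays (43.8%, against 18.0% of all genes) and 1 lower (6.25%, against 14.2%). The median difference was 0.099. Eomes, the factor of intermediate progenitors, read 4.77 and 4.82 in controls against 5.85 and 5.61 in KO (0.94, SE 0.24). Its probe lay in the dimmest bin, and Eomes differed by 0.321 with normexp background correction. Igfbpl1, a marker of neuroblasts, read 8.15 and 8.20 in controls against 8.75 and 8.65 in KO (0.52, SE 0.097), and its second probe differed by 0.57. Sox11, a factor of immature neurons, differed by 0.38 (SE 0.15). Dcx, the classical marker of immature neurons, differed by 0.17 (SE 0.14) at its brightest probe and by -0.22 (SE 0.30) at a second. On the Derlin-1 arrays Eomes read 5.66 to 6.38, Igfbpl1 8.68 to 8.90 and Sox11 9.91 to 10.35. These levels lay closer to the Derlin-2 KO arrays than to the Derlin-2 controls. The brightest Dcx probe read 8.47 to 8.84 there, a range that held Derlin-2 control 1 and both KO arrays.

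Among neural stem cell markers, 5 of 18 lay higher (27.8%, against 18.0% of all genes) and 2 lower (11.1%, against 14.2%) on both KO arrays. The median was 0.127 and ran from 0.0587 without KO 1 to 0.267 without control 1. Fabp7, the brain fatty acid-binding protein, differed by 0.43 (SE 0.11) and the receptor Lpar1 by 0.44 (SE 0.18). The stem cell factor Sox2 differed by 0.13 (SE 0.13), the filament protein Nes by 0.11 (SE 0.19) and Gfap by 0.13 (SE 0.14), and the arrays of their groups overlapped. Stat5b, a transcription factor of cytokine and growth hormone signalling, read 10.09 and 10.20 in controls against 10.40 and 10.11 in KO, again with overlap. In bulk tissue, fewer or more cells of a type and less or more RNA per cell cannot be told apart, which holds for each list of cell type markers.

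Oligodendrocyte genes were higher on both KO arrays in 5 of 20 members (25%, against 18.0% of all genes) and lower in 0 (against 14.2%). Their median of 0.118 ran from 0.00893 without control 2 to 0.261 without KO 2. Enpp6, a marker of newly forming oligodendrocytes, differed by 0.66 (SE 0.20) at its brightest probe. Further Enpp6 probes differed by -0.238 (SE 0.277) and 0.378 (SE 0.298). The precursor receptor Gpr17 differed by 0.34 (SE 0.115). Microglial genes were higher in 5 of 18 (27.8%, against 18.0% of all genes) and lower in 0 (against 14.2%). The microglial median of 0.102 ran from 0.0336 without control 2 to 0.149 without KO 2. Trem2 differed by 0.37 (SE 0.15) and Aif1, the Iba1 gene, by 0.21 (SE 0.14). Microglia lie outside the nestin lineage. Mature granule neuron markers had a median of -0.0060 and a mean of 0.035, with the enzyme Tdo2 at 0.47 (SE 0.15) and Prox1, the identity factor of granule cells, at -0.04 (SE 0.17) on its brightest probe and 0.25 (SE 0.18) on another.

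Of 23 neuropeptide genes, 12 lay lower on both KO arrays (52.2%, against 14.2% of all genes) and 3 higher (13%, against 18.0%). The median difference was -0.167. Npy, neuropeptide Y, read 11.86 and 12.25 in controls against 11.57 and 11.51 in KO (-0.52, SE 0.15, adjusted p 0.831 in limma). Somatostatin, Sst, read 16.03 and 16.15 in controls against 15.76 and 15.75 in KO (-0.33, SE 0.115). The granule protein Chga differed by -0.36 (SE 0.13) and the enkephalin precursor Penk by -0.39 (SE 0.16). Npy and Sst are interneuron markers too. Of 19 interneuron genes, 10 lay lower on both KO arrays (52.6%, against 14.2% of all genes) and 2 higher (10.5%, against 18.0%). The interneuron median was -0.103. Dlx2, a factor of interneuron identity, differed by -0.28 (SE 0.099).

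Astrocyte markers were lower on both KO arrays in 11 of 18 members (61.1%, against 14.2%) and higher in 3 (16.7%, against 18.0%). Their median was -0.132 and their mean -0.052. The bicarbonate transporter Slc4a4 differed by -0.35 (SE 0.15), Aldh1l1 by -0.27 (SE 0.12) and S100b by -0.18 (SE 0.12), while the water channel Aqp4 differed by 0.44 (SE 0.19). Dimmer probes differed by -0.194 (SE 0.152) and 0.085 (SE 0.254) for Slc4a4 and by 0.013 (SE 0.197) for Aldh1l1. Markers of CA pyramidal neurons, which lie in the neighbouring hippocampal fields, were lower in 6 of 19 members (31.6%, against 14.2%). They were higher in 2 (10.5%, against 18.0%). The CA median was -0.120, or -0.0455 without KO 2. The part of dissection in the other differences was not tested. Ligand-gated receptors had a median of -0.049, with the NMDA receptor subunit Grin1 at -0.36 (SE 0.098).

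In several lists the 2 controls stood further apart than the 2 groups. The interferon and MHC class I list had a median of -0.231 in KO, yet its members were a median 0.605 higher in control 2 than in control 1. Without control 2 the median was 0.041, and without control 1 it was -0.528. Relative to the mean of the 4 arrays, the list stood at -0.20 in control 1, 0.44 in control 2, -0.085 in KO 1 and -0.16 in KO 2. Genes of the choroid plexus (median 0.195) and the ependyma (median 0.092) turned sign when an array was left out, with medians from -0.102 to 0.309 and from -0.186 to 0.493. Control 1 was the lowest array for both, at -0.40 and -0.39. Glucocorticoid targets had a median of -0.149, and of 0.014 without control 2.

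**Figure D5:**
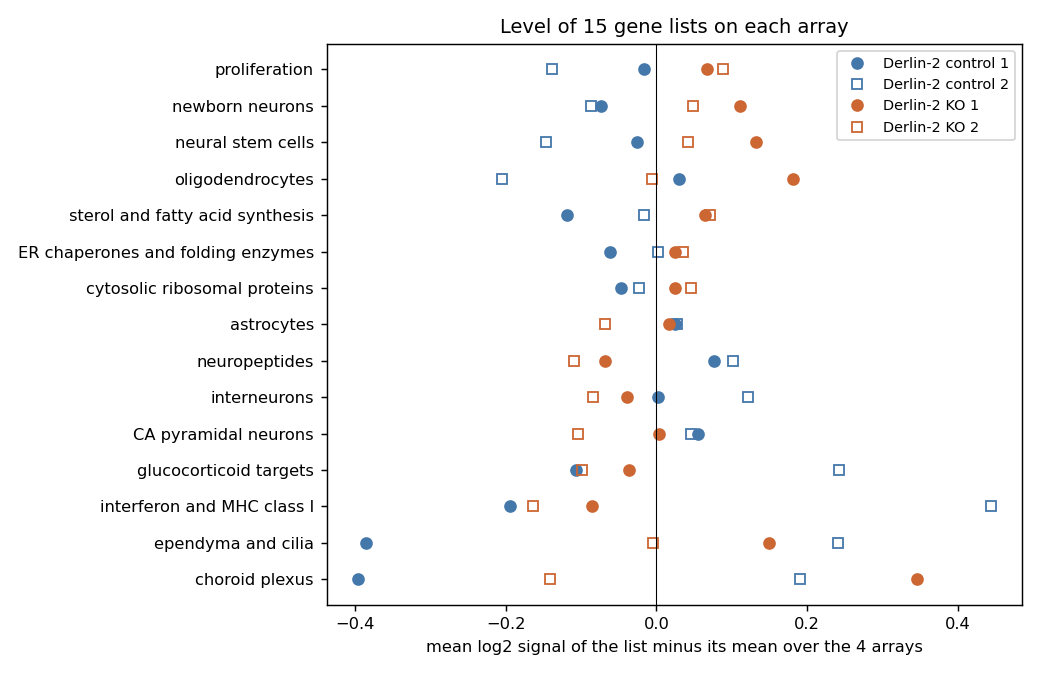
Mean log2 signal of 15 gene lists on each of the 4 arrays, minus the mean of the list over the arrays, with circles for the first and open squares for the second array of a group. For the interferon list control 2 stands apart at 0.44. The KO arrays do not overlap the controls in most of the lists drawn. These are proliferation, newborn neurons, neural stem cells, sterol synthesis, ER chaperones, ribosomal proteins, astrocytes, neuropeptides, interneurons and CA pyramidal neurons. The lists drawn are a selection, and among all gene lists tested the groups overlap in most. With 2 arrays against 2, 33.3% of lists are expected to separate where the groups do not differ. A separation by itself therefore does not mark a changed list.

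Cytosolic ribosomal protein genes differed little but in one direction. Of 39 members, 17 were higher on both KO arrays (43.6%, against 18.0% of all genes) and 1 lower (2.56%, against 14.2%). Their median was 0.073 and the largest difference 0.19. In the remaining lists, the pericyte and fibroblast genes had a median of 0.077 and a mean of -0.079, and the median was -0.0393 without control 1 and -0.00692 without KO 2. Of its 17 members, 5 lay higher (29.4%, against 18.0% of all genes) and 4 lower (23.5%, against 14.2%) on both KO arrays. The channel subunit Abcc9 differed by -0.74 (SE 0.18) and vitronectin, Vtn, by -0.31 (SE 0.12). Of 18 chemokine and complement genes, 3 lay higher (16.7%, against 18.0% of all genes) and 4 lower (22.2%, against 14.2%) on both KO arrays. The surface receptor Cd44, counted among them, differed by 0.59 (SE 0.18), the chemokine Ccl12 by -0.61 (SE 0.28) and the complement gene C4b by -0.29 (SE 0.13), and the list median of -0.0165 ran from -0.117 without control 1 to 0.0974 without control 2. Immediate early genes (0.027), circadian clock genes (0.038), heat shock genes (0.031), oxidative phosphorylation (0.0063), synaptic vesicle genes (0.026), voltage-gated channels (-0.042), endothelium (0.024), mossy cells (-0.0021) and histone deacetylases (0.028) had medians close to that of all genes. Blood genes had a median of -0.133 over 7 members, and of 0.0138 without control 2.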

How the data were processed

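RNA of the dentate gyrus was hybridised to 1-colour Agilent SurePrint G3 mouse arrays. The deposited scanner files, made by the authors with Agilent Feature Extraction 10.7.1.1, give a background-corrected intensity per spot. The authors also deposited normalized log2 values, which served as an alternative, and columns of their own comparisons, which were not used. No table held columns of samples outside the 8 arrays.

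Intensities were floored at 1, quantile-normalized over the 8 arrays and put on the log2 scale, following the normalization named in the study's methods, and the spots of a probe were averaged. Control spots were left out. Probes well above background on all 4 Derlin-2 arrays were fitted with limma 3.58.1 in R 4.3.3, with 1 mean for each of the 4 groups of both lines, so that the spread was estimated over 8 arrays. The p-values were adjusted by Benjamini-Hochberg over all probes tested. Symbols came from the deposited table by probe name, and 5512 tested probes had none. The procedure was tested on simulated data. With 2 arrays against 2, an exact permutation test cannot go below a two-sided p of 0.333, and the number of arrays limits the precision.

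Genes were named by rule: the Derlin family, genes past the threshold, the 10 genes with the smallest p and the 6 with the largest difference per direction among those whose KO arrays lay on one side of the controls, up to 3 members per list, genes that the study discussed or stained, and the neighbours of Derl2. Birc6, Cd99, the Pisd copies, the Xlr genes, the further members of the lists and the carriers of the promoter element were named after their values were seen. Some genes are not reported here, although list counts and medians include them. The members and gene lists were chosen with earlier results of these data known.

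The alternatives were 75th percentile scaling, normalization or fit on 4 arrays, normexp with an offset of 50, other filters, omission of the last rows, row centring, trended and robust variances, the mean of probes, the deposited log2 values, a replicate block and omission of each array. The mean signal was not used here, so normexp took the median signal. Same-numbered arrays were checked for pairing, and the correlation of their deviations was -0.150.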

Additional observations from a re-analysis of the deposited data

Results flagged for a closer look

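Signal was seen in probes that the comparisons left out because they were not above background on all 4 arrays. The chemokine Ccl8 was above background on both KO arrays and on neither control, which puts its KO level at least 6.58-fold above the controls. The probe A_66_P131686, which has no symbol, was above background on the same arrays and differed by at least 1.75-fold. In the other direction, 8 probes called under the wider filter were above background on both controls and neither KO array, at least 1.19-fold to 9.15-fold lower in KO. The predicted gene Gm13848 was at least 9.15-fold lower, Zscan4c at least 5.94-fold, 5830432E09Rik at least 5.26-fold and Mfsd6l at least 4.46-fold. No p-value is given for these probes, because each was admitted through the group in which it was high. Each bound sets the mean of the brighter group against the lowest signal that counted as well above background on each array of the dimmer group. Of all 56605 probes, 129 were above background on both KO arrays and neither control, and 381 on both controls and neither KO array. The share of probes above background was 70.3% on control 1, 68.7% on control 2, 67.6% on KO 1 and 69% on KO 2. The part of these shares in the 2 counts was not tested.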

How the results depend on the processing

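The count of probes past the threshold was 1, and it was 0 with 4 arrays only, in the fit on 4 arrays, with row-centred values and with the deposited log2 values. It was 2 with all 8 arrays above background and 2 without the last rows, where Gm45970 and Birc6 passed. With the wider filter it was 14 (3 higher and 11 lower). Of these 14, 10 were above background on both arrays of 1 Derlin-2 group and on neither array of the other. Leaving out 1 array gave 0 to 22 probes. With the replicate number as a block 0 probes passed, with 1780 at an unadjusted p under 0.05 and a smallest adjusted p of 0.784, and the numbers do not pair the arrays. A crossed pairing, chosen after seeing the data, called 0. The count of probes at least 1.5-fold apart was 228 with normexp, 2246 with the wider filter and 1367 to 2417 without 1 array. The difference of the lines called 2 probes with the wider filter and 0 to 2 without 1 array. The cause of these shifts was not tested. Derl2 stayed negative and short of the threshold in all 16 alternatives, from -0.716 to -0.581 without 1 array.

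Single genes turned sign as follows. With the mean of probes, Birc6 was at -0.399, Mis12 at -0.00184, Dcx at -0.0252, Ddit3 at 0.0548 and Prox1 at 0.103. Prox1 was at 0.246 without the last rows. Without 1 array, Prox1 ran from -0.119 (without control 1) to 0.0394 (without control 2), Ddit3 from -0.283 (without KO 1) to 0.0635 (without KO 2), with 0.0332 without control 2, Gfap from -0.039 (without control 2) to 0.29, Nes from -0.0101 (without control 1) to 0.232 and Stat5b from -0.0292 (without KO 1) to 0.257. Cd99 ran from -0.204 (without control 2) to 4.97, Dhx33 from -0.265 to 0.0496 (without control 2), Nlrp1b from -0.0214 (without control 2) to 0.616, Mis12 from -0.0287 (without KO 2) to 0.378 and the brightest Birc6 probe from -0.0224 (without control 2) to 0.136. Probes on one side of the controls were not counted with 1 array left out, because a lone array gives a different quantity.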
